A study of Mus musculus with 69 samples.

Results

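The genes described here link thrombin, clotting and clot lysis to the vessel wall. They are the protease-activated receptors F2r and F2rl1, the clotting initiator F3, the anticoagulants Thbd, Procr, Tfpi and Tfpi2, and the plasminogen activators Plat and Plau. The 9 genes were chosen by name, and all 9 were found by their Ensembl identifier among the 56953 genes of the count tables for WT VSMC, KO VSMC and EC. Poly(A) RNA-Seq covered 69 libraries (16 of WT VSMC, 15 of KO VSMC, 38 of EC).

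The aorta of male mice was the source of primary WT VSMC. KO VSMC came from male mice with a floxed Egfr gene and Cre under the SM22 promoter, so that Egfr is lost only where that promoter has been active. EC were isolated from the heart of male mice as CD31+ and CD45- cells, and the labels name all EC as WT. All cells were kept without serum for 24 h, either as Control, with 20 mM glucose and 100 µM free fatty acids (HG + FFA), with 30 nM angiotensin II and 300 nM of a catecholamine (AII + NA), or with both pairs (ALL). The labels name the catecholamine epinephrine and the methods norepinephrine. The fatty acid dose is that of the labels, while the methods give it for oleate and for palmitate separately, so that the total dose differs between these sources. Libraries belong to 18 sets, each from 1 animal and passage and treated together, with sets 1 to 4 for WT VSMC, 5 to 8 for KO VSMC and 9 to 18 for EC. ALL of set 5, Control of set 10 and AII + NA of set 15 were not analysed here. Sets 17 and 18 came from the same animal, the animals of sets 15 and 16 also gave KO VSMC sets 7 and 6, and the animals of sets 9 and 10 also gave WT VSMC sets 1 and 2. The labels put all VSMC in 1 batch and all EC in another, so that cell type and batch cannot be told apart.

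Tissue factor, the protein of F3, starts clotting when it meets factor VII of the blood, and the pathway ends in thrombin. Thrombin cuts fibrinogen and also cleaves PAR1, the receptor encoded by F2r, while PAR2, encoded by F2rl1, is cleaved by trypsin-like proteases. Thrombomodulin (Thbd) and the endothelial protein C receptor (Procr) turn thrombin towards the activation of protein C, TFPI (Tfpi) inhibits tissue factor and factor X, and the plasminogen activators tPA (Plat) and uPA (Plau) start clot lysis. Endothelium is known for thrombomodulin, Procr and TFPI, and the smooth muscle and adventitia of the vessel wall for tissue factor.

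Counts per library lay between 17166133 and 43240489. Egfr, the targeted gene, was at 228 to 504 FPM (counts scaled to a fixed total of the normalised library) in WT VSMC and at 0.537 to 1.957 FPM in KO VSMC sets 6 to 8, but at 33.4 to 40.2 FPM in KO VSMC set 5, and stressor effects in KO VSMC are therefore also described without set 5. In EC sets 15 and 16, Egfr was at 2.16 to 12.5 FPM. As set means it was at 9.40 and 2.65 FPM there, at 12.8 FPM in set 18 and at 32.2 to 43.7 FPM in sets 10, 12, 14 and 17. The sum of 8 endothelial markers was 1.20 to 68.1 FPM in WT VSMC and 3.33 to 22.6 FPM in KO VSMC. In EC it ran from 4017 FPM as the mean of set 12 down to 121, 56.03 and 53.8 FPM in sets 11, 9 and 13, which stand apart from the other EC sets, and in these 3 sets Egfr was at 124.5 to 166 FPM. Fibroblast markers were present in every cell type (434 to 11437 FPM as a sum of 5 markers), and 7 smooth muscle markers summed to 207 to 3975 FPM in EC. KO VSMC set 5 also stood apart in marker RNA. As set means, its fibroblast sum was 5880 FPM beside 1491 to 2161 FPM in sets 6 to 8. Smooth muscle markers summed to 3259 FPM beside 880 to 1999 FPM. The sum of 5 leukocyte markers was 140 FPM beside 13.2 to 35.3 FPM, and that of 4 mesothelial markers 7.09 FPM beside 29.8 to 73.4 FPM. Their part in the values of set 5 was not tested. In bulk RNA, fewer cells of a type and less RNA per cell cannot be told apart.

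Per kilobase of the main transcript (FPKM, mean of Control), F3 led in WT VSMC with 224 FPKM, followed by Thbd with 95.1, Tfpi with 69.4, Plat with 68.7 and F2r with 67.8 FPKM. In EC the order was different, with F2r first at 174 FPKM, then Thbd at 76.8, Tfpi at 70.1, Procr at 61.9, Plat at 60.7 and Plau at 54.9 FPKM, and F3 far below at 19.1 FPKM. KO VSMC had F2r at 67.4, Thbd at 62.1, Tfpi at 45.9, F3 at 43.5 and Plat at 35.6 FPKM. F2rl1 and Tfpi2 were lowest in all cell types, with 0.130 to 0.523 and 0.331 to 1.46 FPKM. The order depends on the length used. Per kilobase of all annotated exons, the levels in WT VSMC were 144 FPKM for F3, 67.8 for F2r, 48.4 for Thbd, 25.5 for Plat and 24.2 for Tfpi, and in EC 174 FPKM for F2r, 50.2 for Plau, 48.7 for Procr, 39.1 for Thbd, 24.4 for Tfpi, 22.5 for Plat and 12.3 for F3. F3 in WT VSMC and F2r in EC and KO VSMC were first by both lengths, and F2rl1 and Tfpi2 last. These are levels and not differences, and they varied between sets, as the plot of every library shows.

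**Figure D1:**
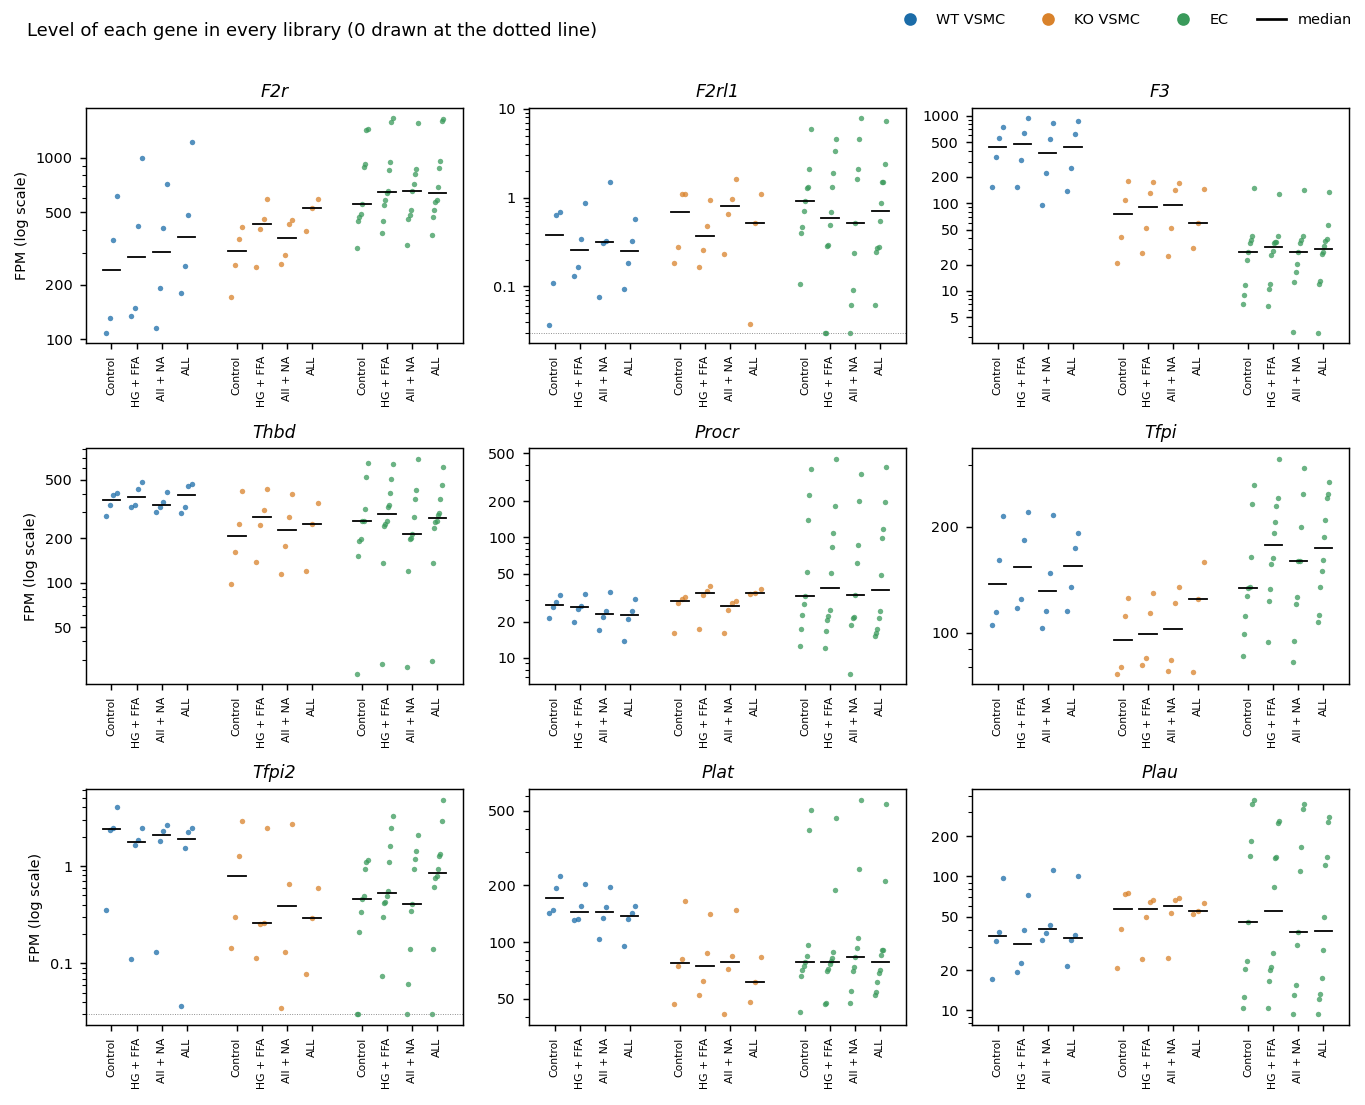
Level of each of the 9 genes in FPM (log scale) in every library, by cell type and condition, with 1 point per library and a bar at the median of the group. F3 lies between 96.7 and 932 FPM in WT VSMC and between 3.33 and 149 FPM in EC, F2rl1 stays at or below 7.81 FPM, and for most genes the sets of a cell type differ more than the conditions.

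The stressors changed few of the 9 genes. In edgeR's quasi-likelihood test with the set as a block, ALL changed 2 of 9 in WT VSMC (F2r higher, Plat lower), where 7.45% of all genes passed an FDR of 0.05, while DESeq2 passed 3 of 9 (9.73% of all genes), and 2 of 9 in EC (Tfpi higher, Plau lower), where 3.18% passed (2 of 9 in DESeq2, 5.22%). HG + FFA changed 1 of 9 in EC (Tfpi higher, 3.53% of all genes), and 1 of 9 in DESeq2 (5.65%). In KO VSMC, ALL changed 0 of 9 (0.399% of all genes), with 4 at an unadjusted p under 0.05 and 3 passing in DESeq2 (1.48%). HG + FFA changed 0 of 9 in WT VSMC (0.538% of all genes), with 2 at an unadjusted p under 0.05 and 0 in DESeq2 (1.74%), and 0 of 9 in KO VSMC (0.439%), with 4 and, in DESeq2, 2 (1.4%). AII + NA changed 0 of 9 for each cell type, where 0.0532%, 0% and 0% of all genes passed in WT VSMC, KO VSMC and EC. The members at an unadjusted p under 0.05 numbered 3, 1 and 0 under AII + NA, and 0 passed in DESeq2 (1%, 0.0627% and 0% of all genes). By the study criteria for DEG (both tools, a |log2FC| of at least 0.64 and 3 FPM), F2r under ALL in WT VSMC was the only DEG among the 9, and 2.18% of all genes were DEG there, beside 0.314% under ALL in KO VSMC and 0.641% in EC. The median log2FC of the 9 genes under ALL was -0.05 for WT VSMC, 0.18 for KO VSMC and 0.12 for EC, beside -0.01, -0.0018 and -0.01 over all genes tested.

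**Figure D2:**
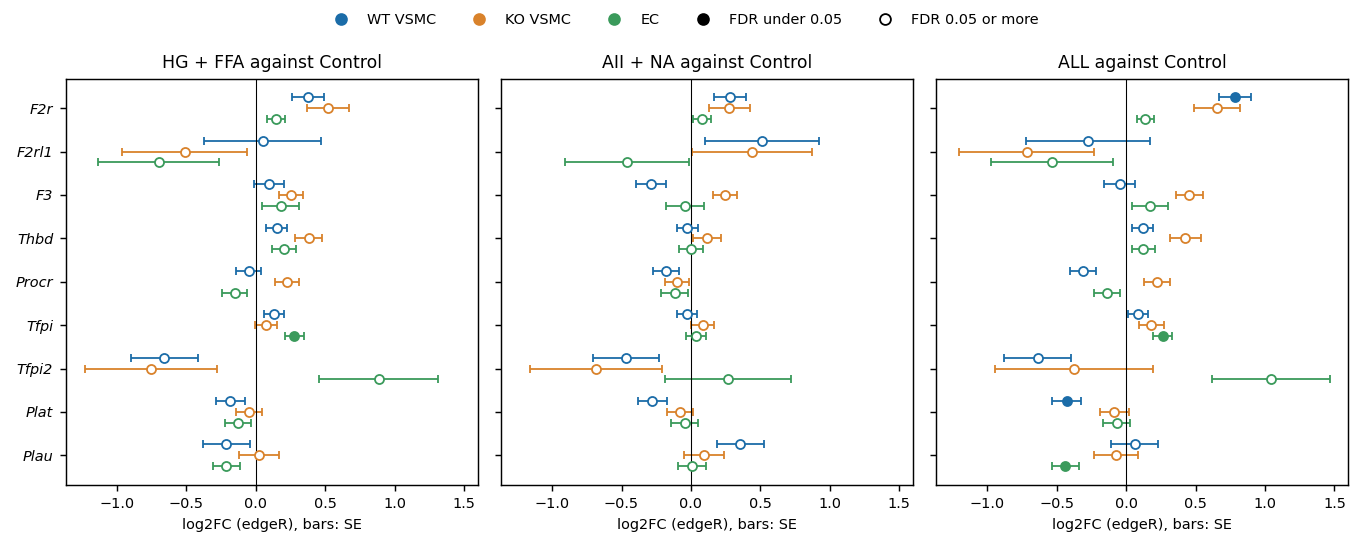
Stressor effect on each gene as log2FC against Control (edgeR, bars are SE) in WT VSMC, KO VSMC and EC, with filled points for an FDR under 0.05. The filled points are F2r (0.79) and Plat (-0.43) under ALL in WT VSMC, Tfpi under HG + FFA (0.28) and ALL (0.26) in EC, and Plau under ALL in EC (-0.44).

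F2r (ENSMUSG00000048376, GRCm39 chr13:95737382-95755177, minus strand) encodes PAR1 and had the largest change among the stressor effects that passed. In WT VSMC it was at 350.0, 108.5, 616 and 131 FPM in the Control libraries of sets 1 to 4, and at 482, 179, 1215 and 254 FPM in their ALL libraries. Every set was higher under ALL, by 1.38, 1.65, 1.97 and 1.95 times, although the set means lay up to 6.60 times apart, so that Control and ALL overlap as groups and separate only within sets. The log2FC was 0.79 ± 0.11 (SE, n = 4 sets, FDR 0.00100 in edgeR). It held when any set was left out, with a log2FC of 0.73 to 0.89. Smooth muscle markers moved in the same libraries: 2 of 7 rose (Tagln and Mylk), with a sum of 384 to 1219 FPM in Control and 1130 to 1597 FPM under ALL, and 2 of 8 endothelial markers fell (Emcn and Cdh5), with a sum of 1.56 to 68.1 FPM in Control and 1.20 to 32.1 FPM under ALL. Their part in the result was not tested.

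The single stressor pairs gave smaller values for F2r in WT VSMC. Under HG + FFA it was at 419, 134, 1000.4 and 149 FPM, higher than Control in 4 of 4 sets, with a log2FC of 0.37 ± 0.11 that did not pass (FDR 0.18). Under AII + NA it was at 412, 116, 718 and 192 FPM, again higher in 4 of 4 sets, with 0.28 ± 0.11 (FDR 0.43), and there Mylk rose as well (1.09 ± 0.18, FDR 0.044). ALL exceeded HG + FFA by 0.41 ± 0.11, which did not pass in edgeR (FDR 0.16) but did in DESeq2 (FDR 0.029). The departure of ALL from the sum of both effects was 0.13 ± 0.16 (FDR 0.9998), with an interval of -0.19 to 0.44.

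In KO VSMC, F2r was higher under HG + FFA and ALL in each of the 3 sets with low Egfr. Control libraries of sets 6, 7 and 8 were at 416, 355 and 171 FPM, HG + FFA at 457, 596 and 403 FPM, and ALL at 529, 589.9 and 396 FPM. Set 5 differed, with 258 FPM in Control, 250.2 FPM under HG + FFA and 259.9 FPM under AII + NA. With set 5, the log2FC was 0.52 ± 0.15 under HG + FFA (FDR 0.21) and 0.66 ± 0.17 under ALL (FDR 0.12). Without set 5 both passed, with 0.70 (FDR 0.020) and 0.75 (FDR 0.022). Of the 4 fits that each left out 1 set, this was the only 1 in which F2r passed. Over these fits the log2FC was 0.29 to 0.70 under HG + FFA and 0.47 to 0.76 under ALL, with FDR up to 0.90 and 0.995. The effect of ALL in WT VSMC less the KO VSMC effect was 0.13 ± 0.21 (FDR 0.90), with an interval of -0.28 to 0.54, and 0.04 without set 5 (FDR 0.95, interval -0.34 to 0.42). A difference between the genotypes within these intervals was not detectable.

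In EC, F2r had its highest levels. The Control libraries ran from 320 to 1435 FPM with a median of 557 FPM, against a Control median of 240 FPM in WT VSMC and 306 FPM in KO VSMC. The difference in Control was 1.39 ± 0.50 on the log2 scale to both WT VSMC (FDR 0.071) and KO VSMC (FDR 0.055) and passed in DESeq2 (FDR 0.018 and 0.014) and without EC sets 9, 11 and 13 (1.67, FDR 0.025 and 0.021). When 1 VSMC set or EC set 18 was left out, it was 1.11 to 2.00 to WT VSMC and 1.20 to 1.55 to KO VSMC, and F2r passed without set 3 against WT VSMC and without set 2 or 3 against KO VSMC (FDR 0.036, 0.049 and 0.043). The order of the medians was EC, KO VSMC, WT VSMC, and between the VSMC the difference was -0.01 ± 0.53 (FDR 0.997, interval -1.05 to 1.03). The stressors moved F2r little in EC, by 0.15 ± 0.06 under HG + FFA (FDR 0.21), 0.08 ± 0.06 under AII + NA (FDR 0.78) and 0.14 ± 0.06 under ALL (FDR 0.26), and ALL was higher than Control in 8 of 9 sets.

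Stretches before the start sites are shown for the changed genes F2r, Plat and Plau, whose windows hold no annotated exon, to set their letters side by side. Each runs 250 bases up to the start of the main transcript, 5′ to 3′ on the gene's strand, from GRCm39. Capitals mark the GC box (GGGCGG, both strands). The window of F2r is chr13:95755178-95755427 (minus strand), that of Plat chr8:23247459-23247708 and that of Plau chr14:20886472-20886721 (both plus strand).
F2r: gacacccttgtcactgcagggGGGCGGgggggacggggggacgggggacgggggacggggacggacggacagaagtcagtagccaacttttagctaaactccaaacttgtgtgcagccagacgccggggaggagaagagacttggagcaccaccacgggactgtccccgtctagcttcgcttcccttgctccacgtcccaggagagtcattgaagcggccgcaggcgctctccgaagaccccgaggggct
Plat: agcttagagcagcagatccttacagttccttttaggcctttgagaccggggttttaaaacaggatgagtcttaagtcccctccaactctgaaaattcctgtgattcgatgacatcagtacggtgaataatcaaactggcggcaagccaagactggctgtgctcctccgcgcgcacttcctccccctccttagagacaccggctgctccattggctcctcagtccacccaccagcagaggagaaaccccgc
Plau: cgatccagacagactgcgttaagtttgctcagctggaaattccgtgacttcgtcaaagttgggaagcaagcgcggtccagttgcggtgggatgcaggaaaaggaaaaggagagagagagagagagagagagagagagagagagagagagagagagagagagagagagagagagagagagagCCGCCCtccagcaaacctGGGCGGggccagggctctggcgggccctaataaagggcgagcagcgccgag
F2r holds 1 GC box, Plau 2 and Plat 0, where 36.3% of the windows of 21770 protein-coding genes hold at least 1. The AP-1 motif (TGANTCA), the TATA box (TATAAA) and the CArG box, which are found in 6.17%, 11.9% and 1.40% of all windows, were in none of these 3 stretches. The F2r window was 64.8% G and C, that of Plau 57.2% and that of Plat 53.2%. These matches are descriptions of letters and not of binding.

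F2rl1 (ENSMUSG00000021678, chr13:95648221-95661800, minus strand) encodes PAR2 and lies 75.6 kb from F2r. It was barely expressed, with 0.0365 to 1.49 FPM in WT VSMC, 0.0375 to 1.64 FPM in KO VSMC and 0 to 7.81 FPM in EC. The EC libraries above 3 FPM all came from sets 10 and 12. It passed no test, and its stressor effects had SE of at least 0.41 on the log2 scale, so that only large changes were detectable. Of the other receptors of the family, F2rl3 (PAR4) stayed at or below 1.87 FPM and F2rl2 (PAR3) at or below 1.29 FPM in all libraries. F2r was thus the only gene of the family above 7.81 FPM in any library.

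F3 (ENSMUSG00000028128, chr3:121516610-121528820, plus strand) encodes tissue factor. Among the 9 genes, it had the only difference between EC and WT VSMC in Control that passed in edgeR with all sets. Control libraries of WT VSMC sets 1 to 4 were at 749.5, 154, 549.7 and 334 FPM, and those of KO VSMC sets 5 to 8 at 178, 20.5, 108 and 41.2 FPM. The 9 Control libraries of EC ran from 7.06 to 149 FPM with a median of 27.5 FPM. All EC libraries lay below all WT VSMC libraries in Control, while KO VSMC overlapped with EC and, through set 5, with WT VSMC.

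The difference of F3 between EC and WT VSMC was -3.54 ± 0.67 on the log2 scale (FDR 0.0041), in a comparison where 15% of all genes passed. F3 was the only one of the 9 genes to pass in edgeR. An unadjusted p under 0.05 was reached by 5 of the 9 and by 5598 of all 17638 genes. DESeq2 passed 3 of the 9, where 21.9% of all genes passed. Without EC sets 9, 11 and 13, the sets with least endothelial marker RNA, the F3 difference was -4.50 (FDR 0.00033). Without 1 VSMC set or EC set 18, it stayed between -3.83 and -3.17 (FDR 0.0039 to 0.018). Between EC and KO VSMC it was -1.18 ± 0.67 (FDR 0.21). The log2FC of KO VSMC against WT VSMC was -2.35 ± 0.69, which did not pass in edgeR (FDR 0.34) and passed in DESeq2 (FDR 0.014). Without set 5 these differences were -0.58 (FDR 0.61) and -2.97 (FDR 0.061). In the order WT VSMC, KO VSMC, EC, neighbours thus did not pass in edgeR, which does not show that they are alike. Reads of F3 cannot be assigned by strand for certain, since 20.7% of its exonic bases are shared with the antisense genes Gm43823 and Gm64338.

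No stressor effect on F3 passed with all sets. In WT VSMC, AII + NA libraries were at 815, 96.7, 536 and 224 FPM beside the Control values above, lower than Control in 3 of 4 sets (-0.29 ± 0.11, FDR 0.37), and ALL gave -0.05 ± 0.11 (FDR 0.85). In KO VSMC, ALL libraries of sets 6 to 8 were at 30.7, 144.5 and 59.6 FPM, 1.496, 1.34 and 1.45 times Control, with a log2FC of 0.46 ± 0.10 that narrowly did not pass (FDR 0.060). Set 5 has no ALL library, and its HG + FFA and AII + NA libraries were at 176 and 171.5 FPM beside 177.5 FPM in Control. Without set 5, F3 passed under ALL (0.52, FDR 0.011) and HG + FFA (0.34, FDR 0.035). It passed in no other fit that left out 1 KO VSMC set, with FDR up to 0.74 and 0.90. The WT VSMC effect less the KO VSMC effect was -0.53 ± 0.14 under AII + NA (FDR 0.39) and -0.50 ± 0.15 under ALL (FDR 0.35), and -0.63 (FDR 0.061) and -0.56 (FDR 0.15) without set 5. In EC, F3 changed by 0.17 ± 0.13 under ALL (FDR 0.56).

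The window before the main start site of F3 overlaps exons of other transcripts, so that only the 18 bases that hold its AP-1 motifs are printed, with the motifs in capitals. They lie at chr3:121517040-121517057 (plus strand), 146 to 129 bases before the start.
F3: TGAATCAcggtTGAGTCA
F3 has 2 matches of TGANTCA in a window of 250 bases, and 1 match each was found for Procr and Tfpi2 among the other 8 genes, beside 6.17% of all windows with at least 1. The F3 window also holds 3 GC boxes and was 70.0% G and C.

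Thbd (ENSMUSG00000074743, chr2:148216045-148250201, minus strand) encodes thrombomodulin and had overlapping levels in all cell types. Control medians were 366 FPM in WT VSMC, 206 FPM in KO VSMC and 263 FPM in EC, and the largest difference was that of KO VSMC to WT VSMC with -0.61 ± 0.38 (FDR 0.50), or -1.06 without set 5 (FDR 0.088). The spread was widest in EC, where set means ran from 27.0 FPM in set 9 to 645 FPM in set 14. In KO VSMC, Control libraries of sets 5 to 8 were at 416, 250.2, 161 and 98.0 FPM and HG + FFA libraries at 432, 313, 247 and 138 FPM. The gain of 0.38 ± 0.10, seen in 4 of 4 sets, did not pass in edgeR (FDR 0.15), and nor did the gain of 0.43 ± 0.11 under ALL in 3 of 3 sets (FDR 0.14). Both passed in DESeq2 (FDR 0.026 and 0.021) and without set 5 (0.48 in each, FDR 0.021 and 0.042). Neither passed in edgeR when another KO VSMC set was left out, with FDR up to 0.90 and 0.995. WT VSMC gave 0.15 ± 0.07 under HG + FFA (FDR 0.48) and EC 0.20 ± 0.08 (FDR 0.20).

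Without set 5, 3 of the 9 genes thus passed in KO VSMC under HG + FFA and under ALL, F2r, F3 and Thbd in both, each of them higher, where 8.57% and 1.04% of all genes passed. These counts were obtained after set 5 had been seen to stand apart. None of the 3 genes passed when another KO VSMC set was left out. In those fits at most 0.215% of all genes passed under HG + FFA and 0.198% under ALL. The other 6 genes had FDR of at least 0.11 under HG + FFA and 0.25 under ALL, and under AII + NA 0 of 9 passed (0% of all genes), with 2 at an unadjusted p under 0.05. Cell type markers moved in the same libraries. Mesothelial Upk3b, 1 of 3 markers of that cell type tested, rose under ALL with all sets (0.76 ± 0.13, FDR 0.020), and without set 5 under both HG + FFA (0.57, FDR 0.021) and ALL (0.77, FDR 0.0080). In sets 6 to 8 the sum of the 4 mesothelial markers was 21.7 to 63.8 FPM in Control, 32.8 to 81.3 FPM under HG + FFA and 36.1 to 92.1 FPM under ALL. Without set 5, only Smtn of the 7 listed smooth muscle markers passed, and it fell under HG + FFA (-0.49, FDR 0.026) and ALL (-0.63, FDR 0.015). The sum of the 7 overlapped, with 967 to 2008 FPM in Control, 692 to 1983 FPM under HG + FFA and 807 to 1963 FPM under ALL. Also without set 5, 2 of 5 fibroblast markers fell under HG + FFA, Dpt (-0.54, FDR 0.029) and Lum (-0.72, FDR 0.047). Their part in the result was not tested.

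Procr (ENSMUSG00000027611, chr2:155593031-155597397, plus strand) encodes the endothelial protein C receptor. Its ALL libraries in WT VSMC were at 24.7, 21.0, 30.8 and 13.9 FPM beside 26.4, 28.9, 33.6 and 21.4 FPM in Control, lower in 4 of 4 sets, with -0.31 ± 0.09 (FDR 0.052, and 0.036 in DESeq2). In KO VSMC sets 6 to 8 the ALL libraries were at 34.9, 37.4 and 33.8 FPM beside 28.7, 32.1 and 31.0 FPM in Control, higher in 3 of 3 sets, with 0.22 ± 0.09 (FDR 0.43, and 0.25 without set 5). The difference of the 2 effects was -0.53 ± 0.13, which did not pass in edgeR (FDR 0.19, and 0.12 without set 5) and passed in DESeq2 (FDR 0.032). Of the 9 genes, 0 passed this comparison of genotypes under ALL in edgeR, with 4 at an unadjusted p under 0.05 and 1 passing in DESeq2, while 0.0109% of all genes passed in edgeR and 0.316% in DESeq2. Under HG + FFA and AII + NA, 0 of 9 passed (0% of all genes each, 1 gene each at an unadjusted p under 0.05 and 0 in DESeq2). Over all 18339 genes, an unadjusted p under 0.05 was reached by 1361 under ALL, 564 under HG + FFA and 2182 under AII + NA. Without set 5, 0 of 9 passed under HG + FFA, AII + NA and ALL, with 2, 1 and 4 at an unadjusted p under 0.05, beside 0%, 0% and 0.0385% of all genes.

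**Figure D3:**
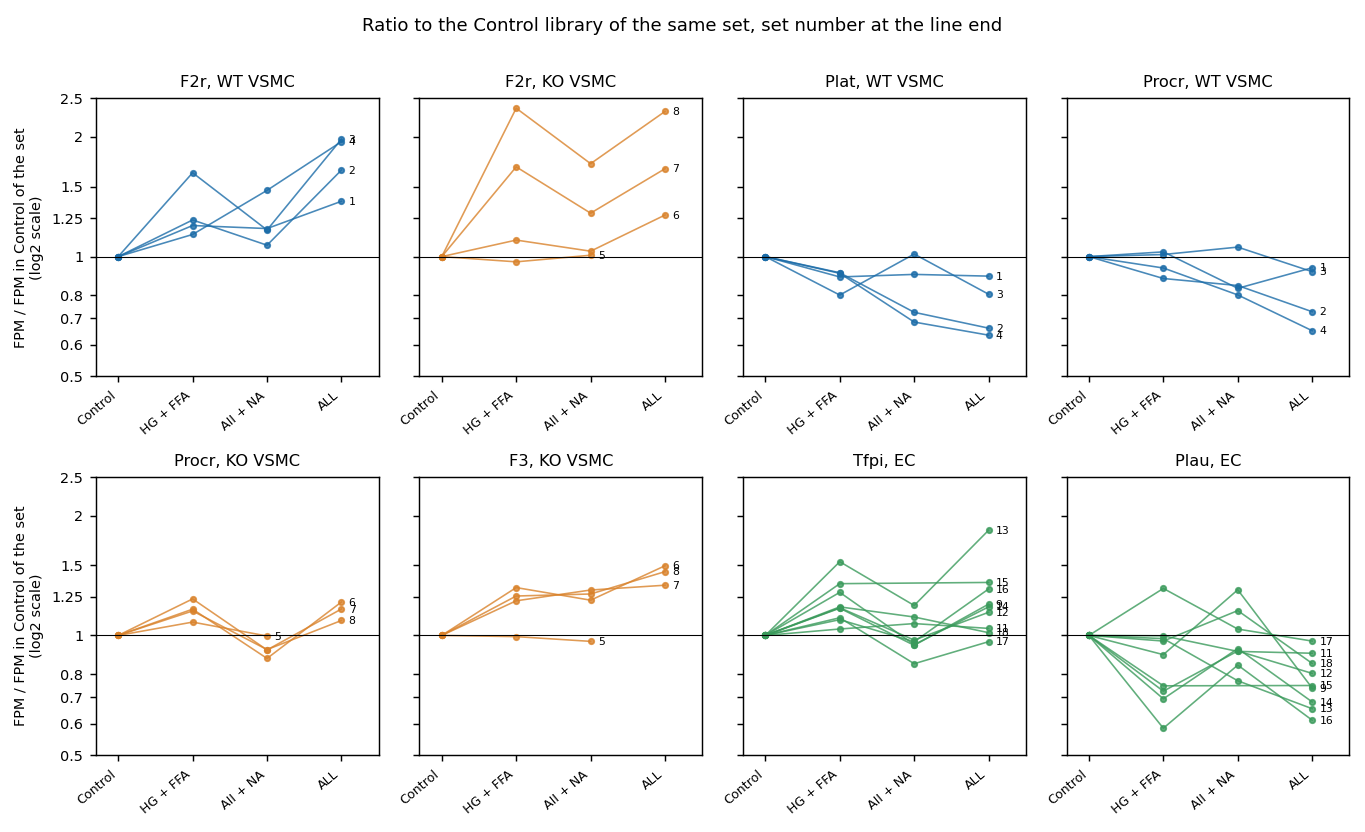
FPM relative to Control within a set (log2 scale) for 8 pairs of gene and cell type, with 1 line per set and the set number at its end. All 4 WT VSMC sets lie above 1 for F2r and below 1 for Plat and Procr under ALL, the line of KO VSMC set 5 stays near 1 for F2r and F3, and all 9 EC sets lie below 1 for Plau under ALL.

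In EC, Procr differed widely between sets. Ordered from the most to the least endothelial marker RNA (sets 12, 18, 14, 15, 10, 16, 17, 11, 9 and 13), the set means of Procr were 384, 53.2, 201, 121, 89.7, 28.8, 21.6, 17.03, 12.1 and 22.2 FPM. Procr was thus highest in set 12 and lowest in sets 9 and 11. For Plau the set means in the same order were 298, 142, 307, 154, 81.2, 35.0, 13.7, 9.88, 23.1 and 17.2 FPM, with sets 14 and 12 highest. F3 had 27.8, 5.11, 20.8, 10.47, 12.5, 37.0, 27.2, 46.3, 36.5 and 137 FPM, and thus its highest level in the set with the least endothelial marker RNA. F2r had 457, 1546, 506, 1559, 648, 880, 901, 352, 595 and 584 FPM, with sets 15 and 18 highest. Sets 11 and 13 also had the most smooth muscle marker RNA, with 3229 and 2994 FPM as the sum of 7 markers beside 220 to 873 FPM in the other EC sets, and the most fibroblast marker RNA, with 8696 and 9909 FPM as the sum of 5 markers beside 605 to 4321 FPM. Their part in the set pattern of F3, and in that of Plat, which was highest in the same sets, was not tested. The points are means of 3 or 4 libraries of 1 set each, and sets 17 and 18 share an animal.

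**Figure D4:**
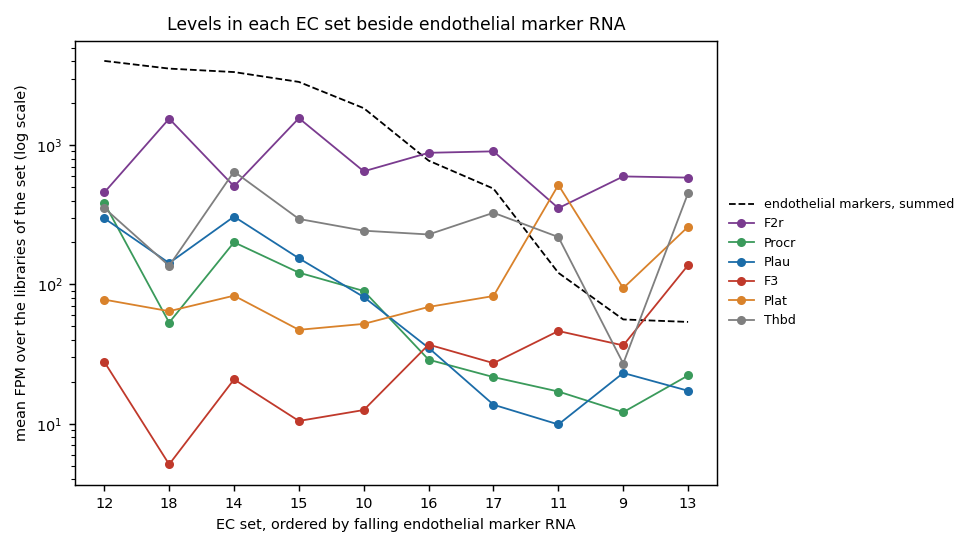
Mean FPM per EC set (log scale) of 6 genes, with the 10 sets ordered by falling endothelial marker RNA (dashed line, sum of 8 markers). Procr and Plau are highest in the sets at the left, with 384 and 298 FPM in set 12, F3 is highest in set 13 at the right with 137 FPM, and Plat in set 11 with 517 FPM.

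Procr differed from VSMC in Control by 1.88 ± 0.81 to WT VSMC (FDR 0.12) and 1.89 ± 0.81 to KO VSMC (FDR 0.098, and 1.70 with FDR 0.19 without set 5), and by 2.37 and 2.38 without EC sets 9, 11 and 13 (FDR 0.017 and 0.014). In EC against KO VSMC, 0 of 9 genes passed with all sets, where 22.8% of all genes passed, with 2 at an unadjusted p under 0.05 and 2 in DESeq2 (F2r and Procr, beside 29.4% of all genes). An unadjusted p under 0.05 was reached by 6591 of all 17638 genes. Without the 3 sets, 3 of 9 passed against KO VSMC and 4 of 9 against WT VSMC, where 34.1% and 28.5% of all genes passed. The 3 sets were left out after the marker values had been seen.

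Tfpi (ENSMUSG00000027082, chr2:84263195-84307164, minus strand) encodes tissue factor pathway inhibitor and rose in EC under both HG + FFA and ALL. Control libraries ran from 85.9 to 263 FPM with a median of 134 FPM, HG + FFA libraries from 94.1 to 311 FPM with a median of 178 FPM, and ALL libraries from 108 to 268 FPM with a median of 174 FPM. These medians are not of the same sets, since Control lacks set 10 (a set mean of 212 FPM) and AII + NA lacks set 15 (122 FPM). The groups overlapped, and within sets HG + FFA was higher in 9 of 9 sets and ALL in 8 of 9. The log2FC was 0.28 ± 0.07 under HG + FFA (FDR 0.018) and 0.26 ± 0.07 under ALL (FDR 0.027), a fold of 1.21 and 1.20. AII + NA libraries were at 82.9 to 293 FPM with a median of 160 FPM, and the log2FC was 0.04 ± 0.07 (FDR 0.92).

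These Tfpi calls were near the threshold. Set 13, the EC set with the least endothelial marker RNA (53.8 FPM), rose most under ALL (1.84 times, from 134.5 to 247 FPM). Without set 13 the log2FC under ALL was 0.19 (FDR 0.10). Leaving out set 12, 14 or 15 also ended the call under HG + FFA (0.28, 0.27 and 0.26, FDR 0.060, 0.054 and 0.065), and leaving out set 12, 14, 15 or 16 that under ALL (0.27, 0.27, 0.24 and 0.25, FDR 0.062, 0.056, 0.088 and 0.056). Without EC sets 9, 11 and 13, Tfpi passed under HG + FFA (0.27, FDR 0.043) and not under ALL (0.20, FDR 0.16). Without sets 15 and 16, whose animals also gave KO VSMC, it passed under neither HG + FFA (0.27, FDR 0.086) nor ALL (0.22, FDR 0.17). With the animal as the block in place of the set, so that sets 17 and 18 share a level, Tfpi gave 0.28 (FDR 0.56) under HG + FFA and 0.27 (FDR 0.60) under ALL. Emcn, 1 of the 7 endothelial markers tested, rose as well under HG + FFA (0.37 ± 0.08, FDR 0.0061) and ALL (0.40 ± 0.08, FDR 0.0034), and the sum of the 8 markers was 51.9 to 3686 FPM in Control, 52.2 to 4569 FPM under HG + FFA and 54.8 to 4214 FPM under ALL. Fibroblast Col1a1, 1 of 5 markers of that cell type, fell under HG + FFA (-0.73 ± 0.19, FDR 0.020), and the sum of the 5 was 711 to 11237 FPM in Control and 434 to 8494 FPM under HG + FFA. Their part in the result was not tested. In VSMC, Tfpi did not pass, with 0.09 ± 0.07 in WT VSMC and 0.18 ± 0.09 in KO VSMC under ALL (FDR 0.56 and 0.50, the latter 0.33 without set 5).

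Tfpi2 (ENSMUSG00000029664, chr6:3962589-3988964, minus strand) encodes a related inhibitor of serine proteases. It was near the limit of detection, at 0.0364 to 4.08 FPM in WT VSMC, 0.0349 to 2.88 FPM in KO VSMC and 0 to 4.76 FPM in EC. In WT VSMC, Control libraries were at 2.32, 4.08, 0.356 and 2.44 FPM and ALL libraries at 2.21, 2.46, 0.0364 and 1.54 FPM, lower in 4 of 4 sets (-0.64 ± 0.24, FDR 0.13). In EC the value under ALL had the other sign (1.04 ± 0.42, FDR 0.19), higher in 8 of 9 sets. No effect passed, and a difference between cell types in the stressor effect was not tested.

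Plat (ENSMUSG00000031538, chr8:23247709-23272871, plus strand) encodes the tissue-type plasminogen activator. In WT VSMC it fell under ALL, from 148.5, 143, 194.5 and 225 FPM in Control of sets 1 to 4 to 133, 94.8, 156 and 143 FPM, which is 0.893, 0.661, 0.804 and 0.635 times Control. The log2FC was -0.43 ± 0.11 (FDR 0.021), below the size that the study asks of a DEG. The call rests on sets 2 and 4, since it was -0.37 (FDR 0.12) without set 2 and -0.35 (FDR 0.15) without set 4. HG + FFA gave -0.18 ± 0.10 (FDR 0.56, lower in 4 of 4 sets) and AII + NA -0.28 ± 0.10 (FDR 0.38, lower in 3 of 4 sets).

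In KO VSMC, Plat gave -0.08 ± 0.11 under ALL (FDR 0.80), and the WT VSMC effect less the KO VSMC effect was -0.34 ± 0.15 (FDR 0.64). Without set 5 these were -0.06 (FDR 0.81) and -0.37 (FDR 0.34). Control libraries of KO VSMC sets 5 to 8 were at 166, 47.1, 74.3 and 81.4 FPM, so that only set 5 reached the range of WT VSMC. The difference of KO VSMC to WT VSMC in Control was -0.93 ± 0.36 (FDR 0.40) and passed without set 5 (-1.37, FDR 0.041), where 2.41% of all genes passed. Of the 4 listed mesothelial markers, only Upk3b passed there and was higher in KO VSMC (3.49, FDR 0.019). Of the 5 listed fibroblast markers, only Pdgfra (-2.32, FDR 0.024) and Lum (-3.59, FDR 0.034) passed and were lower. No marker of the other lists passed, and the part of these markers was not tested. With set 5, 0 of 9 genes passed in this comparison (0.00622% of all genes), with 2 at an unadjusted p under 0.05 and 1, F3, in DESeq2 (2.14%). Of all 16089 genes, 1958 were at an unadjusted p under 0.05. EC Control libraries ran from 42.5 to 505 FPM with a median of 78.0 FPM, and set 11, with 517 FPM as its mean, and set 13, with 259 FPM, were highest. The stressors changed Plat in EC by -0.13 ± 0.09, -0.04 ± 0.10 and -0.07 ± 0.09 (FDR 0.54, 0.93 and 0.78 for HG + FFA, AII + NA and ALL).

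Plau (ENSMUSG00000021822, chr14:20886722-20893453, plus strand) encodes the urokinase-type plasminogen activator and fell under ALL in EC. The 9 Control libraries ran from 10.4 to 371 FPM with a median of 46.1 FPM, and the 10 ALL libraries from 9.35 to 278 FPM with a median of 39.2 FPM. The groups overlapped almost fully, while within sets ALL was lower in 9 of 9, at 0.612 to 0.968 times Control. The log2FC was -0.44 ± 0.10 (FDR 0.0080). Under HG + FFA it was lower in 8 of 9 sets, with -0.21 ± 0.10 that did not pass (FDR 0.25), and under AII + NA it was 0.01 ± 0.10 (FDR 0.99).

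The Plau result passed without any single set (FDR 0.0050 to 0.034), and without EC sets 9, 11 and 13 (-0.45, FDR 0.036). Without sets 15 and 16, whose animals also gave KO VSMC, it was -0.40 (FDR 0.062), and with the animal as the block -0.45 (FDR 0.71). The antisense gene Gm63115 shares 15.1% of the exonic bases of Plau. Mesothelial Upk3b, 1 of 4 markers of that cell type, rose under ALL in EC (0.65 ± 0.15, FDR 0.010), with a sum of the 4 markers of 3.12 to 77.05 FPM in Control and 5.80 to 89.8 FPM under ALL, and its part was not tested. In VSMC, Plau gave 0.06 ± 0.17 in WT VSMC and -0.07 ± 0.16 in KO VSMC under ALL (FDR 0.88 and 0.90, the latter -0.12 with FDR 0.73 without set 5), and WT VSMC sets did not share a direction, with set 1 at 0.653 and set 4 at 1.955 times Control.

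Departure of ALL from the sum of HG + FFA and AII + NA was found for 0 of 9 genes in each cell type, with 0 at an unadjusted p under 0.05 in edgeR and 0 in DESeq2, and 0% of all genes passed. ALL against HG + FFA changed 0 of 9 in edgeR in each cell type (0.0414% of all genes in WT VSMC, 0% in KO VSMC and EC). The unadjusted p was under 0.05 for 3 genes of WT VSMC, 0 of KO VSMC and 1 of EC, and DESeq2 passed 1 (F2r), 0 and 0, beside 1.33%, 0% and 0% of all genes. Over all genes the unadjusted p was under 0.05 for 1829 of 16905, 510 of 17538 and 881 of 17148.

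Around the 9 genes, 45 further genes of clotting and fibrinolysis were examined, of which 23 averaged 1 FPM or more in a cell type. These included 6 of 10 genes of the plasminogen system, 6 of 6 G proteins and arrestins that serve the receptors, 5 of 5 genes for carboxylation and secretion of clotting factors, 3 of 8 anticoagulants and 3 of 14 clotting factors (F5, F8 and Vwf). Thrombin, plasminogen, fibrinogen and protein C are made in the liver, and F2, Plg, Fga, Fgb, Fgg and Proc each stayed below 1 FPM in every library.

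In WT VSMC, 0 of 24 list genes tested changed in edgeR under each condition, with 4, 3 and 7 at an unadjusted p under 0.05 for HG + FFA, AII + NA and ALL and 0 passing in DESeq2, beside 0.538%, 0.0532% and 7.45% of all genes in edgeR. Of all 16905 genes, 1892, 1592 and 3673 were at an unadjusted p under 0.05. In KO VSMC, 0 of 26 changed in edgeR, with 4, 2 and 4 at an unadjusted p under 0.05 and 0, 0 and 1 passing in DESeq2, beside 0.439%, 0% and 0.399% of all genes in edgeR. Of all 17538 genes, 2181, 1711 and 1842 were at an unadjusted p under 0.05. The gene that passed in DESeq2 was Plaur, the urokinase receptor, with a log2FC of 0.74 ± 0.20 under ALL in KO VSMC (FDR 0.14 in edgeR and 0.031 in DESeq2, and 0.69 with FDR 0.12 in edgeR without set 5). Without set 5, 3 list genes passed under HG + FFA, where 8.57% of all genes passed. With all sets, 26 list genes had been tested, and so small a count does not set the list apart from all genes. The 3 genes were S100a10, the partner of annexin A2, with -0.56 (FDR 0.023), Anxa2 itself with -0.39 (FDR 0.031) and Gna13, which encodes a G protein that PAR1 uses, with 0.38 (FDR 0.045).

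In EC, 4 of 25 list genes tested changed under HG + FFA, beside 3.53% of all genes, and all 4 were lower: Gas6, a vitamin K-dependent ligand of TAM receptors (-0.47 ± 0.10, FDR 0.0061), Serpine2, a thrombin and urokinase inhibitor (-0.47 ± 0.14, FDR 0.047), Vkorc1, which recycles vitamin K (-0.46 ± 0.13, FDR 0.038), and Anxa2, a binding partner of plasminogen and tPA (-0.25 ± 0.07, FDR 0.039). Under ALL, 3 of 25 changed, beside 3.18% of all genes, again Gas6 (-0.42 ± 0.10, FDR 0.018), Vkorc1 (-0.47 ± 0.13, FDR 0.036) and Anxa2 (-0.25 ± 0.07, FDR 0.049). Vkorc1 averaged 7.41 FPM in EC and shares 29.5% of its exonic bases with Gm21974 and Prss53 on the same strand, so that its reads cannot be assigned for certain. For these list genes, results with a set left out or with the animal as the block are not given here. In DESeq2, 4 and 5 list genes passed under HG + FFA and ALL, beside 5.65% and 5.22% of all genes. AII + NA changed 0 of 25 (0% of all genes), with 1 at an unadjusted p under 0.05 and 0 in DESeq2. An unadjusted p under 0.05 was reached by 1143 of all 17148 genes. Plaur in EC gave 0.40 ± 0.24 under ALL (FDR 0.43).

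Between the genotypes in Control, 1 of 24 list genes tested passed in edgeR with all sets and was also the only one of all 16089 genes. This was Serpine2, with 59.3, 81.4, 43.9 and 61.2 FPM in WT VSMC and 405, 307, 305 and 307 FPM in KO VSMC sets 5 to 8, a log2FC of 2.44 ± 0.22 (FDR 0.017, and 2.33 with FDR 0.0058 without set 5). The groups did not overlap, and set 5 was as high as the other KO VSMC sets. Egfr, the targeted gene, thus did not pass in this edgeR test, so that a gene that did not pass cannot be read as alike in the genotypes. In DESeq2, 343 genes passed (2.14%), and in edgeR without set 5, 397 genes passed (2.41%). Between EC and VSMC in Control, 5 of 26 list genes tested passed against WT VSMC, where 15% of all genes passed, and 9 of 26 against KO VSMC, where 22.8% passed. Vwf, the von Willebrand factor of endothelium, was 7.03 ± 1.51 and 7.67 ± 1.57 higher in EC on the log2 scale (FDR 0.0072 and 0.0044), F8 2.18 ± 0.70 and 2.09 ± 0.70 higher (FDR 0.046 and 0.041), and Gas6 differed by -2.003 ± 0.45 and -1.61 ± 0.45 (FDR 0.0094 and 0.019). Arrb1, an arrestin that binds activated receptors, was 1.27 ± 0.37 and 1.58 ± 0.37 higher in EC (FDR 0.030 and 0.0087), and Gnaq, which encodes a G protein that PAR1 uses, 1.15 ± 0.33 and 1.12 ± 0.33 higher (FDR 0.029 and 0.023). Against KO VSMC, Serpine2 also passed with -1.69 ± 0.44 (FDR 0.014), as did S100a10 with -1.09 (FDR 0.0077), Plgrkt, a plasminogen receptor, with -0.62 (FDR 0.022) and Gna13 with 0.48 (FDR 0.032).

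The protein-coding genes whose pattern was most like that of each gene were sought over all 69 libraries after centring each set on its mean, among 10695 genes that averaged 3 FPM or more per cell type. F2r was most like Oxsr1 and Chp1 (Pearson r = 0.83 and 0.80), Tfpi like Zfp24 and Dld (0.77 and 0.77), Thbd like Adgra3 and Clcn7 (0.77 and 0.73), Plau like Trib2 and Ccn2 (0.74 and 0.74), Plat like Il4ra and Fzd1 (0.71 and 0.68), F3 like Shmt2 and Tigar (0.63 and 0.61) and Procr like Tgif1 and Sf3b2 (0.55 and 0.55). F2rl1 and Tfpi2 were too low for their likeness to be read. Among pairs of the 9 genes the highest values were 0.44 for F3 with Thbd and 0.41 for F2r with Tfpi, and the lowest was -0.43 for F2r with Plat. Libraries of a set share their animal, culture and treatment day, so that these are descriptions of likeness.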

How the data were processed

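The authors mapped paired-end reads of poly(A) RNA with HISAT2 (2.1.0) to mm39 and counted them per gene with featureCounts, and the deposited tables hold raw counts per gene. The strand setting is not given in the sources used here. Counts per library were 23626664 to 37801299 in WT VSMC, 23238979 to 35120866 in KO VSMC and 17166133 to 43240489 in EC, of which 0.0241% lay on identifiers outside the annotation (GENCODE, GRCm39). FPM are counts scaled by the TMM-normalised library size, and FPKM divide these by the length of the canonical transcript or, where said, of all annotated exons.

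Tests used edgeR (4.0.16, R 4.3.3) with TMM, filterByExpr and the quasi-likelihood test, with the set as a block for stressor effects, and FDR by Benjamini-Hochberg over all genes tested. Control levels of cell types were compared without a block. DESeq2 (1.42.0), its size factors, no count filter, no block, only the groups compared, and leaving out each set were alternatives. The sets pair the libraries by design, from the same animal, passage and treatment, and deviations of libraries of a set correlated with a mean r of 0.800, 0.781 and 0.818 in WT VSMC, KO VSMC and EC. Libraries of the same cell type and condition differed by at least 45.9 in chi-square per gene, so none of them was a copy of another in its group. Libraries of different conditions or cell types were not compared in this way. On simulated counts, 91.0% of 200 genes with a log2FC of 0.75 were recovered for ALL in WT VSMC (16905 genes), 64.5% in KO VSMC (17538 genes) and 89.5% in EC (17148 genes), 54.0% for the difference of ALL effects between the genotypes (18339 genes), 0% for KO VSMC against WT VSMC in Control (16089 genes) and 1.00% for EC against WT VSMC in Control (17638 genes). The 200 genes were drawn only from genes above a minimum average level. These shares therefore do not apply to genes as low as F2rl1.

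Named are all 9 genes, genes of a list of 45 further clotting and fibrinolysis genes that passed (the 5 largest a comparison by rule, further ones after their values were seen) or whose product acts directly on the 9, the 2 genes most alike to each, and marker genes that passed within a cell type. A further gene of the list is not reported here and enters none of its counts. The members and lists were chosen with earlier results of these data known. Windows before start sites were read from GRCm39. Tables and plots were made with Python (3.11.15), pandas (2.3.3) and matplotlib (3.10.9).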

Additional observations from a re-analysis of the deposited data

Results flagged for a closer look

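In a group of 4 to 10 libraries, a value was singled out when its gap to the nearest other was large for the range of the group, which chance does in about 1 in 20 groups. This was so for 14 values in 99 groups, from 13 libraries. The same sets recur in each condition, so that the groups are not independent and this count cannot be set against that rate. Of these values, 12 came from 11 EC libraries of sets 11, 12, 13 and 18. F3 stood apart in set 13 in all 4 conditions, at 148.8 FPM in Control, 126.6 FPM under HG + FFA, 141.0 FPM under AII + NA and 133.4 FPM under ALL. Plat stood apart in set 11, at 455.5 FPM under HG + FFA, 568.9 FPM under AII + NA and 539.4 FPM under ALL. Procr was apart in set 12, at 445.8 FPM under HG + FFA and 382.5 FPM under ALL, as was F2rl1 at 5.983 FPM in Control and 7.317 FPM under ALL. F2r in set 18 was at 1547 FPM under AII + NA. In VSMC, Tfpi2 of KO VSMC set 5 was at 2.483 FPM under HG + FFA and Plau of WT VSMC set 3 at 112.0 FPM under AII + NA.

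The effect of ALL on Procr had opposite signs in the genotypes, with all 4 WT VSMC sets lower and all 3 KO VSMC sets higher than their Control. The difference of the log2FC was -0.531, which passed in DESeq2 and did not in edgeR.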

How the results depend on the processing

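Sets, animals and batches limit these results: WT VSMC and KO VSMC rest on 4 sets each, KO VSMC set 5 retained Egfr RNA and also differed in marker RNA, EC sets differed in endothelial marker RNA, and cell type and batch cannot be told apart. The fold of F2r under ALL in WT VSMC passed in 8 of 9 alternatives, that of Plat in 6 of 9, Plau in EC in 15 of 18, Tfpi in EC in 11 of 18 (HG + FFA) and 8 of 18 (ALL), and F3 in EC against WT VSMC in 14 of 14, each with its sign kept. In all, 491 single-gene values kept their call, 38 passed only in the alternative and 24 only in the main setting, and causes were not tested.

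Members passing changed as follows. In DESeq2 they were 1 (from 0) for ALL against HG + FFA in WT VSMC, 2 and 3 (from 0) for HG + FFA and ALL in KO VSMC, 1 (from 0) for the genotype difference under ALL and for KO VSMC against WT VSMC in Control, and 3 (from 1) and 2 (from 0) for EC against WT VSMC and KO VSMC. Wider list genes in DESeq2 were 1 (from 0) for ALL in KO VSMC and 5 (from 3) for ALL in EC. With no count filter, 1 and 2 members (from 0) passed in WT VSMC under HG + FFA and under AII + NA (1.71% and 1.86% of all genes in that fit), 2 and 3 for HG + FFA and ALL in KO VSMC (1.85% and 1.43%), and 1 for the genotype difference under AII + NA (0.98%). Fitting only the groups compared gave 1 (from 0) for ALL in KO VSMC (0.635% of all genes), 0 (from 1) for HG + FFA and 1 (from 2) for ALL in EC (1.56% and 0.985%). With the animal as the block, 0 passed in EC (0.916% for HG + FFA, 0.781% for ALL). Added after the data were seen, leaving out EC sets 9, 11 and 13 gave 1 for ALL in EC (1.91%), 4 for EC against WT VSMC and 3 against KO VSMC, and leaving out sets 15 and 16 gave 0 for both HG + FFA and ALL (1.47% and 1.68%).

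Leaving out 1 set gave 1 to 2 members for ALL in WT VSMC (2.89% to 5.74% of all genes), 0 to 3 for HG + FFA and for ALL in KO VSMC (3 without set 5, beside 0% to 8.57% and 0% to 1.04%), 0 to 1 for HG + FFA and 1 to 2 for ALL in EC (1.43% to 4.19% and 1.79% to 3.55%), 0 to 1 for KO VSMC against WT VSMC (0% to 2.41%), 1 to 2 for EC against WT VSMC (2 without set 3, a leave-out added later, 5.93% to 14.4%) and 0 to 1 for EC against KO VSMC (1 without set 2 or 3, 8.78% to 23%).

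Without the replicate block, which ignores the pairing of libraries by set, 0 members and 0 wider list genes passed in each stressor comparison. The log2FC turned to -0.13 for F3 under ALL in KO VSMC, and the genotype difference under ALL to 0.21 for F3, 0.0771 for Thbd and 0.0741 for Plat. Set 5 has no ALL library, so that there its Control enters without its pair.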
